A study of Mus musculus with 12 samples.

Results

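The genes described are 10 members of the fibroblast growth factor (FGF) signalling system: the receptors Fgfr1, Fgfr2, Fgfr3 and Fgfr4, the ligands Fgf1 and Fgf9, the ligand carrier Fgfbp1, and the feedback inhibitors Spry1, Spry2 and Spry4. They were taken by gene symbol from the deposited read counts, which list 26264 genes, and all 10 had enough reads to be among the 16465 genes tested. RNA was sequenced in bulk from mouse endometrial epithelial organoids, cultures grown in a matrix from the epithelium that lines the uterus and used at passage 3. The 12 libraries form 4 groups of 3: Esr1 knockout (KO) without estrogen, wild type (WT) without estrogen, KO with estrogen and WT with estrogen. Esr1 encodes the estrogen receptor alpha. The labels give neither the deleted exons, the age of the donor mice for these libraries, the estrogen dose or its time, nor whether replicates came from separate mice, and they state that organoids of both genotypes failed to respond to the hormone. The p-values therefore measure the spread between these libraries only.

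FGFs are secreted proteins that bind receptor tyrosine kinases together with heparan sulfate chains, and the activated receptor signals mainly through adaptor proteins, RAS and the MAP kinases. Sprouty proteins are induced by that signal and dampen it, which makes them a common readout of receptor activity. In the uterus and other organs with an epithelium on a stroma, stromal FGF7 and FGF10 reach an epithelial splice form of FGFR2, and FGF9 is made in uterine epithelium and acts on the stroma. Counts per gene cannot tell the epithelial from the mesenchymal splice forms of the receptors.

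The sequences shown are the start regions of Fgfr2 and Fgfr3, the receptors that took most receptor reads in WT and in KO libraries, and of Fgfbp1, the member with the highest level in KO. RefSeq promoter windows on build GRCm38.p6, each running 250 bases upstream and 50 bases downstream of a gene's start, matched 7 of the 10 members in 8 windows. The Fgfr2 window is chr7:130266759-130267058 on the minus strand, the first of the Fgfr3 windows chr5:33721474-33721773 on the plus strand, and the Fgfbp1 window chr5:43981750-43982049 on the minus strand. Capitals mark a single arm of the estrogen response element in Fgfr3 (GGTCA, here on the opposite strand as TGACC) and the letters TATAAA in Fgfbp1, a motif searched only after the windows had been seen.
Fgfr2: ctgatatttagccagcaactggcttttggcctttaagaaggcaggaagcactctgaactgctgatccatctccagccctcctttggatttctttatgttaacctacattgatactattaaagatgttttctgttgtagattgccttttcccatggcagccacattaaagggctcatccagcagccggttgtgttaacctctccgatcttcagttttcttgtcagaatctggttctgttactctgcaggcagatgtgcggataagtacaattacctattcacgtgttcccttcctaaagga
Fgfr3: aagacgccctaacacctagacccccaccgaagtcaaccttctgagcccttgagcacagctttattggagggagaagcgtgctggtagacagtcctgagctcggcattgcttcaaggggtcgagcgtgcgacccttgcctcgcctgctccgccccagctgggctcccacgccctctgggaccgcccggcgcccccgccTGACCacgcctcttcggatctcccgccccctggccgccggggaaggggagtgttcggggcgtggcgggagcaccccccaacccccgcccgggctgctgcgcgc
Fgfbp1: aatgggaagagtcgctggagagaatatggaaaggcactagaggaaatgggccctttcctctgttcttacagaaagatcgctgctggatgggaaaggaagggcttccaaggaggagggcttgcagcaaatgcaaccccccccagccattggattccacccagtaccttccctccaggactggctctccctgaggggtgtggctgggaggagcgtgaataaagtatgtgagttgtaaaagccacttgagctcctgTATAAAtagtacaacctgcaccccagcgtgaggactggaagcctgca
The palindromic estrogen response element GGTCANNNTGACC was found in 0 of the 8 member windows and in 0.07% of 32851 RefSeq windows of the same length. A single GGTCA arm on either strand was present in 3 of the 8 windows, those of Fgfr3, Fgf9 and Spry2, against 40.5% of all windows. The match in Fgfr3 began 53 bases before the start. The motif CCGGAAG of ETS factors, transcription factors downstream of FGF signals, was in 0 of 8 member windows and in 8.86% of all windows. TATAAA on either strand was in the Fgfbp1 window, just after the start, and in 13.6% of all windows. These windows differed in base composition, with 43.7% G and C in Fgfr2, 69.7% in Fgfr3 and 53.3% in Fgfbp1.

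Library totals ran from 75654191 to 108665407 counted reads. Esr1 itself was measured at 16.4 ± 0.402 counts per 1e+06 counted reads (CPM) in KO against 307.7 ± 50.2 CPM in WT without estrogen, and at 19.7 ± 0.510 in KO against 318.1 ± 33.5 CPM in WT with estrogen (SD, n = 3 each). Which exons the reads left in KO came from was not measured. All CPM values are scaled by TMM, edgeR's trimmed mean of M values. The 8 epithelial markers summed to 3894 to 5003 CPM over the KO libraries and to 4760 to 5759 CPM over the WT libraries, so transcripts of simple epithelium were abundant in all 12. Markers of basal cells, the cells at the base of stratified epithelia, summed to 4697 to 11442 CPM over the KO libraries and to 2.16 to 4.28 CPM over the WT libraries. Markers of multiciliated cells summed to 728 to 1320 CPM in KO and to 1.06 to 1.59 CPM in WT. All 8 basal and all 8 ciliated markers were called higher in KO in both treatments, with 100% of each list called against 64.9% of all genes tested. In every WT library Trp63 of the basal list had 136 to 339 reads and Tppp3 of the ciliated list 31 to 71. Krt14 of the basal list had 0 reads in 4 of 6 WT libraries and Mcidas of the ciliated list 0 in 4 of 6. Mcidas had at least 1628 reads in each KO library. Immune markers ran the other way, with sums of 100.4 to 187 CPM in KO and 256 to 474 CPM in WT. Cd68 alone gave 100 to 187 CPM in KO and 202 to 446 CPM in WT, most of each sum. Csf1r had 1700 to 4065 reads per WT library against 6 to 50 in KO. Of the 4 immune markers tested, 3 were called lower in KO and 0 higher. Adgre1 had at most 42 reads in a library, and Cd3e and Cd79a had too few to be tested. Smooth muscle sums were 1.74 to 2.50 CPM in KO and 2.65 to 3.54 CPM in WT, and endothelial sums 2.65 to 3.48 CPM in KO and 1.26 to 3.57 CPM in WT. Members of the muscle and endothelial lists differed in direction in both treatments. Of the muscle list, Myh11 was called higher and Tagln lower in KO, and Tagln, at 0.921 CPM in KO and 2.54 CPM in WT without estrogen, set the lower KO sum. Of the endothelial list, Pecam1 and Vwf were called higher in KO (25.3-fold and 3.25-fold without estrogen) and Cdh5 lower, at 0.0231 CPM in KO and 2.02 CPM in WT without estrogen. Marker transcripts thus moved with genotype, and their part in the genotype differences below was not tested. In bulk RNA, fewer cells of a type and less RNA per cell cannot be told apart.

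KO libraries differed from WT libraries in receptor identity: Fgfr2 was 11.2- to 12.2-fold lower, Fgfr3 20.2- to 34.6-fold higher and Fgfr1 36.3- to 45.3-fold higher. Fgfbp1 was 25.4- to 32.8-fold higher, Fgf9 was 1.83- to 2.35-fold higher and Spry2 1.27- to 1.47-fold higher, while Spry4 was 2.38- to 3.63-fold lower. With edgeR's quasi-likelihood test at an adjusted p under 0.05, 10 of the 10 members were called between KO and WT without estrogen, 7 higher and 3 lower in KO. That test called 71.7% of all genes without estrogen, 37.7% higher and 34% lower, so a call alone does not set a gene apart from the background. With estrogen 8 of the 10 were called, 5 higher and 3 lower, against 70.8% of all genes, 36.7% higher and 34.1% lower. The same 8 were called in both treatments with the same sign, against 64.9% of all genes (34.1% higher and 30.8% lower). These 8 also had all 6 KO libraries on 1 side of all 6 WT libraries, as did 65% of all genes tested. Same-numbered KO libraries deviated from their group means together across treatments (r = 0.842, 0.770 and 0.647). The treatments are therefore not independent repeats of the genotype difference, and the fit took all libraries as independent. The median log2 fold change of the 10 members was 0.75 without and 0.64 with estrogen, beside 0.04 and 0.02 over all genes tested.

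**Figure D1:**
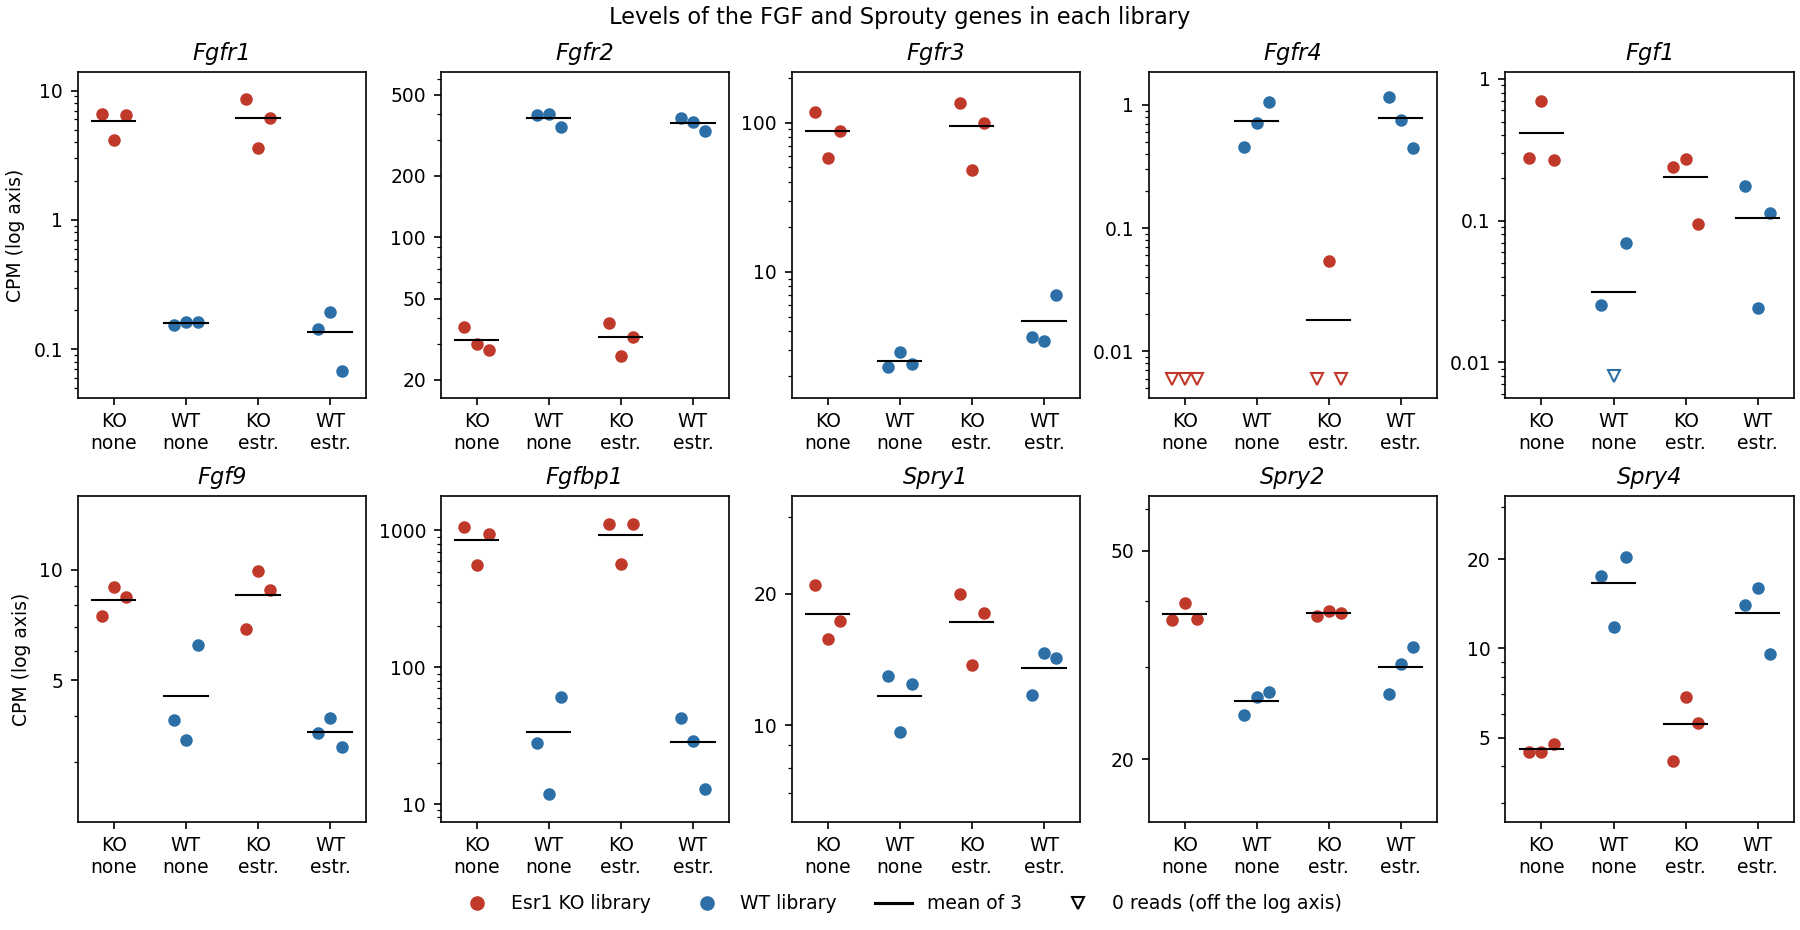
Level of each gene in each library, in TMM-normalised CPM on a log axis whose range differs between panels. Points are libraries (red KO, blue WT, replicates 1 to 3 from left to right), bars are means of 3, and open triangles are libraries with 0 reads placed at the foot of the axis. KO and WT points are apart in both treatments in every panel except Fgf1 and Spry1.

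Fgfr2, the main FGF receptor of epithelia, had 36.1, 29.8 and 28.0 CPM in the 3 KO libraries without estrogen, against 399.5, 402.9 and 347 CPM in WT. With estrogen, Fgfr2 had 38.0, 26.1 and 32.6 CPM in KO, against 384, 367 and 333 CPM in WT. The lowest WT library lay far above the highest KO library, and the 6 libraries of each genotype spread little. The log2 fold change of KO over WT was -3.61 ± 0.151 (SE) without estrogen (edgeR adjusted p = 7.94e-09) and -3.49 ± 0.15 with estrogen (edgeR adjusted p = 1.11e-08). It was the member with the smallest adjusted p in each treatment.

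Fgfr3, a receptor best known for restraining the growth of cartilage, had 117, 58.2 and 87.5 CPM in KO without estrogen, against 2.29, 2.90 and 2.40 CPM in WT. With estrogen the KO libraries had 136, 48.1 and 99.7 CPM, against 3.68, 3.44 and 6.94 CPM in WT. KO replicate 2 was the lowest KO library in both treatments and still exceeded every WT library. The log2 fold changes were 5.11 ± 0.456 without estrogen (edgeR adjusted p = 2.2e-06) and 4.33 ± 0.436 with estrogen (edgeR adjusted p = 6.04e-06).

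Fgfr1, the receptor that prevails in mesenchyme, had 6.64, 4.15 and 6.53 CPM in KO without estrogen, against 0.153, 0.162 and 0.162 CPM in WT. The treated libraries had 8.66, 3.62 and 6.09 CPM in KO, against 0.144, 0.194 and 0.0676 CPM in WT. WT libraries were thus close to the limit of detection, with 36 reads over the 3 treated and 42 over the 3 untreated WT libraries, and KO replicate 2 was again the lowest of its group. The log2 fold changes were 5.17 ± 0.42 in untreated (edgeR adjusted p = 8.9e-07) and 5.50 ± 0.428 in treated libraries (edgeR adjusted p = 7.19e-07). On build GRCm38.p6 the span of Fgfr1 overlaps the predicted genes Gm31288 and Gm16159, and counting ignored the strand. No RefSeq mRNA of another gene shared exon bases with Fgfr1, and non-coding transcripts were not checked.

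Fgfr4, the receptor of endocrine FGFs in liver, had 0 reads in all 3 KO libraries without estrogen and 0.459, 0.718 and 1.07 CPM in WT. In the treated groups Fgfr4 had 0, 0.0541 and 0 CPM in KO, the middle value being 6 reads, against 1.15, 0.75 and 0.451 CPM in WT. Reads over the group numbered 214 in treated and 199 in untreated WT, so the gene was rare in both genotypes. With the count of 0 set to a floor of 3 reads over the group (0.0116 CPM), Fgfr4 was 64.7-fold lower in KO without estrogen (edgeR adjusted p = 0.000288). With estrogen it was 43.5-fold lower (edgeR adjusted p = 0.000583). The fitted log2 fold changes of -9.13 and -5.34 rest on these zeros and are no measure of size, since without KO replicate 2 with estrogen the value with estrogen was -9.18. Such floors are not strict bounds. Mates of a pair were counted separately, so reads were not independent and a floor of 3 reads may be too low. The floors also leave out the spread between libraries.

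**Figure D2:**
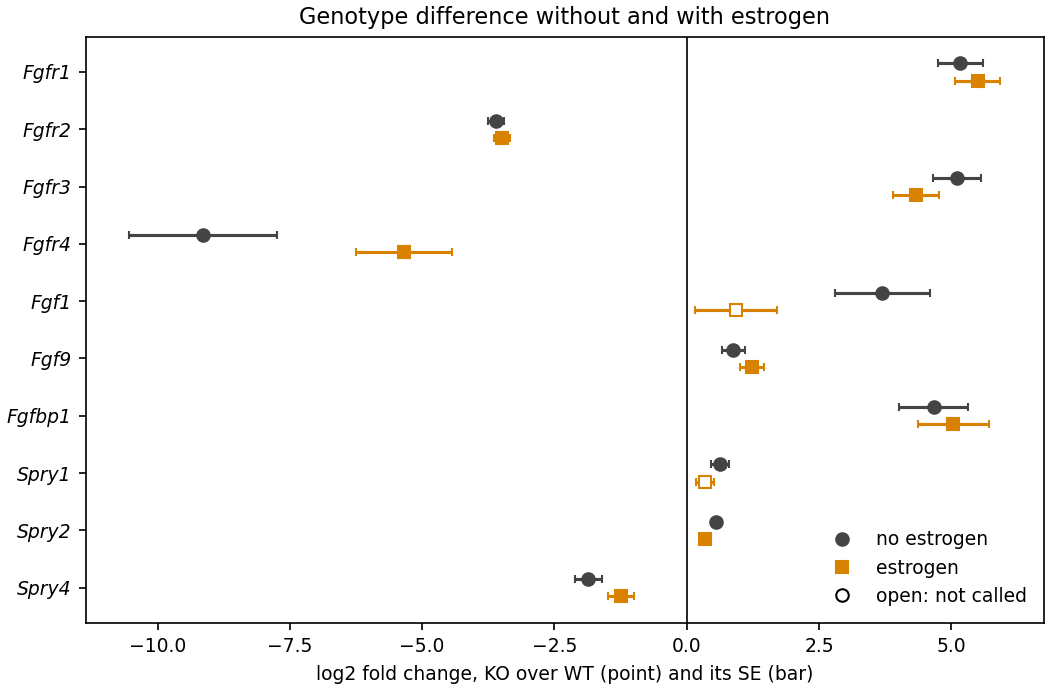
Fitted log2 fold change of KO over WT for each gene (horizontal axis), without estrogen (grey circles) and with estrogen (orange squares), with its SE as a bar. Open symbols did not pass an adjusted p of 0.05, which held for Fgf1 and Spry1 with estrogen, and the Fgfr4 points are set by libraries with 0 reads.

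Among the ligands, Fgf9, a secreted factor that in the uterus is made by the epithelium, had 7.48, 8.99 and 8.40 CPM in KO without estrogen, against 3.90, 3.44 and 6.22 CPM in WT. With estrogen, Fgf9 had 6.90, 9.89 and 8.78 CPM in KO, against 3.60, 3.96 and 3.30 CPM in WT. Untreated WT replicate 3 came nearest to the KO range without entering it. The log2 fold changes were 0.88 ± 0.218 without estrogen (edgeR adjusted p = 0.00382) and 1.24 ± 0.22 with estrogen (edgeR adjusted p = 0.000411).

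Fgf1, a ligand that can bind all FGF receptors and lacks a classical secretion signal, was close to undetected in WT. It had 0.276, 0.697 and 0.270 CPM in KO without estrogen, against 0.0255, 0 and 0.0695 CPM in WT, where the 3 libraries held 8 reads. In the treated groups it had 0.241, 0.270 and 0.0949 CPM in KO, against 0.175, 0.0242 and 0.113 CPM in WT. The genotypes were apart without estrogen and overlapped with it. The log2 fold change was 3.70 ± 0.9 without estrogen (edgeR adjusted p = 0.00329) and 0.93 ± 0.773 with estrogen, where it was not called (edgeR adjusted p = 0.297). That the genotype effect differed between treatments was not shown, since the interaction was -2.76 ± 1.2 on the log2 scale (unadjusted p = 0.0424, edgeR adjusted p = 0.974). Leaving out 1 library moved the untreated value to 3.07 (without WT replicate 2), 5.02 (without WT replicate 3) or 3.10 (without KO replicate 2), and the call held each time. On GRCm38.p6 the span of Fgf1 overlaps Arhgap26 and Gm5820, though no RefSeq mRNA of another gene shared exon bases with it.

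Fgfbp1, a secreted carrier that frees FGFs from heparan sulfate in the matrix, was the most abundant of the 10 in KO. It had 1062, 558 and 939.5 CPM in KO without estrogen, against 28.1, 11.9 and 60.9 CPM in WT. With estrogen, Fgfbp1 had 1111, 566 and 1109 CPM in KO, against 42.9, 29.1 and 12.9 CPM in WT. Every KO library exceeded every WT library, and the WT libraries themselves spanned a wide range. The log2 fold changes were 4.67 ± 0.654 without estrogen (edgeR adjusted p = 7.21e-05) and 5.04 ± 0.665 with estrogen (edgeR adjusted p = 4.89e-05). Without untreated WT replicate 3 the untreated value was 5.42.

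The Sprouty genes moved in different directions. Spry4 had 4.48, 4.48 and 4.77 CPM in KO without estrogen, against 17.6, 11.9 and 20.4 CPM in WT. With estrogen it had 4.16, 6.85 and 5.62 CPM in KO, against 14.0, 16.0 and 9.56 CPM in WT. All KO libraries were below all WT libraries. The log2 fold changes were -1.86 ± 0.25 without estrogen (edgeR adjusted p = 4.74e-05) and -1.25 ± 0.245 with estrogen (edgeR adjusted p = 0.000825).

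Spry2, which in developing epithelial organs restrains FGF-driven branching, had 36.8, 39.7 and 37.0 CPM in KO without estrogen, against 24.3, 26.3 and 26.8 CPM in WT. The treated groups had 37.5, 38.4 and 38.0 CPM in KO, against 26.7, 30.4 and 32.8 CPM in WT. The KO libraries were tightly grouped and lay above all WT libraries. The log2 fold changes were small, 0.55 ± 0.0793 without estrogen (edgeR adjusted p = 7.81e-05) and 0.34 ± 0.0791 with estrogen (edgeR adjusted p = 0.00243).

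Spry1 had 20.9, 15.7 and 17.3 CPM in KO without estrogen, against 13.0, 9.63 and 12.5 CPM in WT. With estrogen it had 20.0, 13.8 and 18.04 CPM in KO, against 11.7, 14.7 and 14.3 CPM in WT. The genotypes were apart without estrogen, whereas with estrogen KO replicate 2 fell within the WT range. The log2 fold change was 0.62 ± 0.17 without estrogen (edgeR adjusted p = 0.00657) and 0.35 ± 0.169 with estrogen, where it was not called (edgeR adjusted p = 0.086). Without KO replicate 2 the value with estrogen was 0.49 and was called (edgeR adjusted p = 0.0228). The interaction was -0.27 ± 0.24 (edgeR adjusted p = 0.974), so a difference between the treatments was not shown.

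Shares within a family do not depend on how libraries are scaled, and they are given as a description with no test. Fgfr2 took 26 ± 5.55% of the reads of Fgfr1 to Fgfr4 in KO without estrogen, against 99.1 ± 0.153% in WT (mean ± SD, n = 3 each). With estrogen it took 25.9 ± 6.69% in KO, against 98.4 ± 0.551% in WT. Fgfr3 took 69.4 ± 5.49% in KO without estrogen, against 0.656 ± 0.076% in WT, and 69.4 ± 6.77% in KO with estrogen, against 1.3 ± 0.638% in WT. Receptor reads in KO libraries were therefore mostly Fgfr3, and in WT libraries almost wholly Fgfr2. Fgfr1 took 4.67 ± 0.617% in KO without estrogen, against 0.0413 ± 0.00431% in WT, and 4.6 ± 0.18% in KO with estrogen, against 0.0363 ± 0.0162% in WT. The 4 receptors summed to 124.7 ± 33.9 CPM in KO and 386.6 ± 31.1 CPM in WT without estrogen, and to 132.9 ± 52.4 CPM in KO and 367.1 ± 24.5 CPM in WT with estrogen. The higher Fgfr3 and Fgfr1 in KO thus did not make up in reads for the lower Fgfr2.

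**Figure D3:**
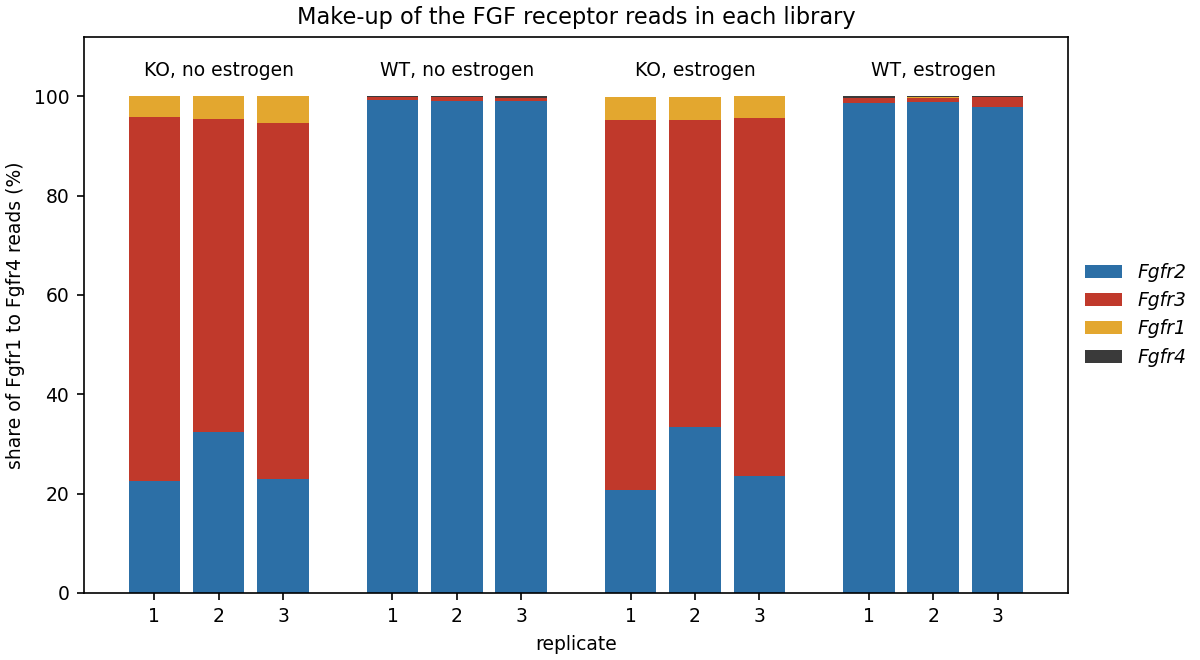
Share of the reads of the 4 FGF receptors taken by each receptor, in percent, with 1 bar per library and replicates 1 to 3 within each group. Fgfr2 (blue) fills the WT bars, at 97.8 to 99.3%, and Fgfr3 (red) takes 61.7 to 74.4% of the KO bars.

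The 3 Sprouty genes summed to 60.41 ± 1.61 CPM in KO and 54.13 ± 6.02 CPM in WT without estrogen, and to 60.77 ± 1.51 CPM in KO and 56.68 ± 4.3 CPM in WT with estrogen. The make-up of that sum differed between genotypes. Spry4 took 7.59 ± 0.445% of these reads in KO and 30.4 ± 4.93% in WT without estrogen, and 9.16 ± 2.43% in KO and 23.2 ± 5.49% in WT with estrogen. Spry2 took 62.7 ± 3.5% in KO and 48.1 ± 5.99% in WT without estrogen, and 62.5 ± 2.29% in KO and 52.9 ± 4.39% in WT with estrogen. Spry1 took 29.7 ± 3.67% in KO and 21.6 ± 1.8% in WT without estrogen, and 28.3 ± 4.63% in KO and 23.9 ± 1.4% in WT with estrogen.

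To compare levels between genes, CPM was divided by exon length in kilobases, from GENCODE M21 exons of RefSeq-linked transcripts on GRCm38. In untreated KO the order from high to low was Fgfbp1 (695 ± 214 CPM per kb), Fgfr3 (19.9 ± 6.7), Spry2 (18.1 ± 0.763), Spry1 (7.22 ± 1.06), Fgfr2 (6.52 ± 0.883), Fgf9 (5.2 ± 0.479), Fgfr1 (1.15 ± 0.28), Spry4 (0.963 ± 0.0357), Fgf1 (0.104 ± 0.0614) and Fgfr4 (0). In untreated WT it was Fgfr2 (79.8 ± 6.5 CPM per kb), Fgfbp1 (27.4 ± 20.3), Spry2 (12.4 ± 0.628), Spry1 (4.69 ± 0.719), Spry4 (3.5 ± 0.918), Fgf9 (2.84 ± 0.937), Fgfr3 (0.575 ± 0.0739), Fgfr4 (0.225 ± 0.0917), Fgfr1 (0.0316 ± 0.00104) and Fgf1 (0.00796 ± 0.00883). Fgfr2 thus had rank 5 in KO and rank 1 in WT, and Fgfr3 rank 2 in KO and rank 7 in WT. Neighbours in these orders that differed by less than the larger of their SDs were Fgfr3 and Spry2, Spry1 and Fgfr2, and Fgfr1 and Spry4 in KO, and Fgfbp1 and Spry2, and Spry4 and Fgf9 in WT. The treated groups had the same orders.

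The other genes of the pathway were read from 7 lists holding 92 genes, of which 77 were tested. Of these 77, 29 were called higher in KO in both treatments, 26 lower and 22 were not called in both, so 71.4% were called against 64.9% of all genes. Their median log2 fold change was -0.02 without and 0.21 with estrogen, beside 0.04 and 0.02 over all genes. The genes named from each list are those with the largest mean fold change among the calls.

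Of 20 other FGF genes, not all of which encode secreted ligands, 7 were tested, 4 were higher in KO and 1 lower. Fgf7, a stromal ligand of the epithelial FGFR2 form, had 9.10 ± 3.21 CPM in KO against 0.156 ± 0.133 CPM in WT without estrogen, and 15.4 ± 2.63 CPM in KO against 0.183 ± 0.0952 CPM in WT with estrogen (SD, n = 3 each). It was 58.2-fold higher without estrogen (edgeR adjusted p = 2.65e-06) and 84-fold higher with it (edgeR adjusted p = 1.55e-06). Without untreated WT replicate 3 the untreated log2 fold change was 6.80 in place of 5.88. Stromal fibroblast markers, 10 genes with 1 of 6 tested called higher, summed to 6.66 to 11.2 CPM in KO and to 2.52 to 5.33 CPM in WT, with most of the KO sum from Vim. Between 1 and 5 of the 10 had 0 reads in a KO library and between 0 and 2 in a WT library. Lum had 0 reads in all 6 KO libraries and Col3a1 in 4 of them, whereas Pdgfra had 98 to 298 reads in each KO library against 83 to 163 in each WT library, and Col1a1 had 7 to 58 in KO against 40 to 78 in WT. The part of stromal transcripts in the Fgf7 difference was not tested. Fgf10, the other stromal ligand, had 0 reads in all 12 libraries, and Fgf2, a widely expressed ligand, had 6 reads in treated WT and 0 elsewhere. Fgf13, a relative that acts inside cells, was at 1.25 ± 0.123 CPM in treated and 1.37 ± 0.316 CPM in untreated KO and had 0 reads in WT. With a floor of 3 reads over the WT group, which is not a strict bound, untreated KO was 120-fold higher. Fgf23, an endocrine ligand of phosphate balance, was rare, with 127 reads over treated and 82 over untreated KO and also 0 in WT. At such a floor it was 34.3-fold higher with and 27.7-fold higher without estrogen. Fgf15, an endocrine ligand of the gut, had 34, 0 and 40 reads in untreated and 30, 2 and 50 in treated KO replicates 1, 2 and 3, so replicate 2 held next to none. It had 0 reads in WT. At such a floor its KO mean was 22.4-fold higher with estrogen (edgeR adjusted p = 0.04) and 25.2-fold higher without it (edgeR adjusted p = 0.0357). Fgf15 lost its call when single libraries of either genotype were left out. Fgf11 was lower in KO, at 11.75 ± 1.795 CPM against 17.3 ± 3.29 CPM in WT without estrogen and 12.5 ± 2.28 CPM against 16.8 ± 0.858 CPM in WT with it (edgeR adjusted p = 0.0127 and 0.0427), and its calls were not stable. With library size alone it was not called in either treatment (adjusted p = 0.209 with and 0.0949 without estrogen), and with estrogen it also lost its call with DESeq2 (adjusted p = 0.0658) and with the replicate block (edgeR adjusted p = 0.0532). It was no longer called in both treatments, so that 0 of these FGF genes were lower, in 8 of the 12 fits with a single library left out (edgeR adjusted p up to 0.153).

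Of 14 tested co-receptors and heparan sulfate core proteins, 7 were higher in KO and 4 lower. Gpc4, a glypican, had 37.5 ± 2.09 CPM in KO and 0.823 ± 0.434 CPM in WT without estrogen, and its log2 fold changes were 5.49 ± 0.453 without and 3.55 ± 0.403 with estrogen. Gpc1, another glypican, had 93.1 ± 11.2 CPM in KO and 6.23 ± 5.26 CPM in WT without estrogen, with a value of 3.90, or 4.87 without WT replicate 3. Sdc1, the main syndecan of epithelia, had 872.6 ± 157.6 CPM in KO and 58.97 ± 16.44 CPM in WT without estrogen. Kl, the co-receptor of FGF23, had 0.0613 ± 0.025 CPM in KO and 5.53 ± 2.59 CPM in WT without estrogen and was lower in KO in both treatments (log2 fold changes -6.46 and -6.73, or -6.00 with estrogen when WT replicate 1 was left out). Gpc3, a glypican, had 2.53 ± 0.787 CPM in KO and 173 ± 83.6 CPM in WT without estrogen. Fgfrl1, an FGF-binding receptor without a kinase domain, had 14.1 ± 0.983 CPM in KO and 61.2 ± 5.99 CPM in WT in the untreated groups, and its log2 fold change was -2.12 ± 0.0974 without estrogen (edgeR adjusted p = 1.41e-08).

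Of 12 tested enzymes that build or trim heparan sulfate, 5 were higher in KO and 5 lower, or 3 lower with library size alone. Sulf2, a sulfatase that removes sulfate from the chains, had 51.55 ± 5.26 CPM in KO and 2.52 ± 0.538 CPM in WT without estrogen, and 47.5 ± 2.37 CPM in KO and 8.51 ± 4.22 CPM in WT with it. Hpse, the heparanase that cuts the chains, had 71.8 ± 2.08 CPM in KO and 13.2 ± 3.08 CPM in WT without estrogen. Hs6st2, a sulfotransferase, had 274 reads in treated and 260 reads in untreated KO, against 4 reads in each WT group. Ndst2, Ext2 and Extl3, enzymes of chain synthesis, were lower by 0.76, 0.58 and 0.61 on the log2 scale without estrogen.

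The 22 adaptor, RAS and MAP kinase genes were all tested, with 5 higher and 9 lower in KO, and with library size alone 9 higher and 5 lower, so their balance of directions depends on the scaling. Mapk3, which encodes the kinase ERK1, had 329.9 ± 2.05 CPM in KO and 130.6 ± 12.1 CPM in WT without estrogen, a log2 fold change of 1.34 ± 0.0895. Hras (0.96) and Braf (0.73) were higher, and Araf (-0.86), Map2k1 (-0.73) and Shc1 (-0.64) lower, as log2 fold changes without estrogen. Of 8 other feedback inhibitors, 4 were higher and 2 lower. Dusp4, a nuclear MAP kinase phosphatase, had 177 ± 21.6 CPM in KO and 26.0 ± 12.35 CPM in WT without estrogen. Dusp6, the ERK phosphatase often used as a readout of FGF signals, had 175 ± 4.64 CPM in KO and 103 ± 21.1 CPM in WT without estrogen, and 182 ± 10.8 CPM in KO and 117 ± 14.35 CPM in WT with it, a log2 fold change of 0.77 ± 0.131 without and 0.64 ± 0.131 with estrogen (edgeR adjusted p = 0.000295 and 0.00107). Il17rd, the inhibitor Sef, was higher (0.85 without estrogen), and Spred3 (-2.57) and Spred1 (-0.58), relatives of the Sprouty genes, were lower.

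Of 10 transcription factors and early genes downstream of MAP kinases, 3 were higher in KO and 4 lower. Etv4, an ETS factor induced by FGF in many epithelia, had 40.5 ± 11.95 CPM in KO and 4.55 ± 1.76 CPM in WT without estrogen, and 41.3 ± 14.8 CPM in KO and 4.87 ± 1.56 CPM in WT with it (edgeR adjusted p = 2.25e-05 and 2.76e-05). Its relative Etv5 had 49.0 ± 7.17 CPM in KO and 6.59 ± 1.09 CPM in WT without estrogen (edgeR adjusted p = 8.03e-08). Etv1, of the same subfamily, moved the other way, with 11.8 ± 0.765 CPM in KO and 34.75 ± 4.12 CPM in WT without estrogen. In the untreated groups Fos had 31.8 ± 7.78 CPM in KO and 101.5 ± 15.1 CPM in WT, and Ier3 had 237 ± 20.3 CPM in KO and 1144 ± 137.9 CPM in WT. Myc was 0.48 higher on the log2 scale without estrogen (edgeR adjusted p = 0.0299) and lost its call when single libraries were left out. Targets and feedback genes of the pathway, like the Sprouty genes, therefore included members called in either direction.

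**Figure D4:**
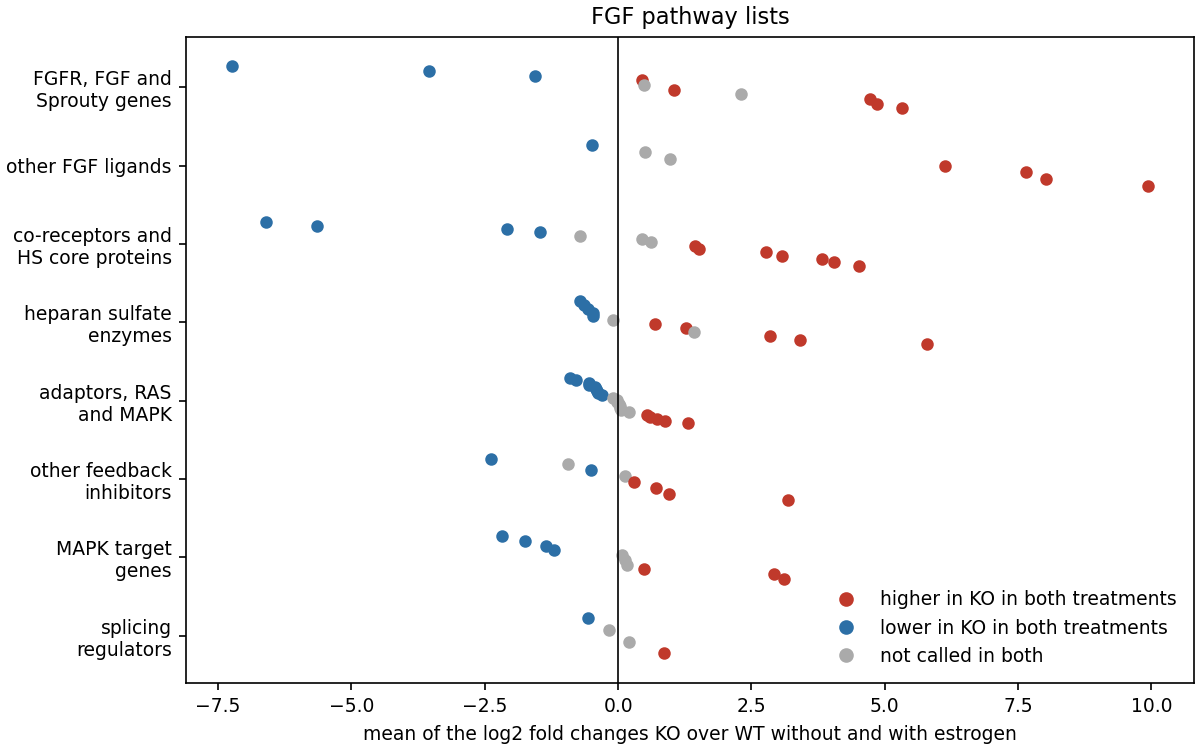
Mean of the log2 fold changes of KO over WT without and with estrogen (horizontal axis) for each tested gene, arranged by list with the 10 described genes at the top. Red genes were called higher and blue genes lower in KO in both treatments, and grey genes were not called in both. The described genes number 5 red, 3 blue and 2 grey, and the lists below them 29, 26 and 22.

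Splice form choice of FGFR2 is set in epithelia by Esrp1 and Esrp2. Esrp1 had 220.5 ± 13.4 CPM in KO and 120.2 ± 2.74 CPM in WT without estrogen, and 214 ± 13.7 CPM in KO and 119.6 ± 5.45 CPM in WT with it (edgeR adjusted p = 7.61e-07 and 1.18e-06). Esrp2 had 100.4 ± 12.6 CPM in KO and 90.9 ± 6.36 CPM in WT without estrogen and was not called there (edgeR adjusted p = 0.243, or 0.0083 with library size alone). With estrogen it had 102.5 ± 12.4 CPM in KO and 84.8 ± 4.02 CPM in WT and was called higher by 0.27 on the log2 scale (edgeR adjusted p = 0.0384), a call lost in 6 of the 12 fits with a single library left out (edgeR adjusted p up to 0.152). Ptbp1, a general splicing repressor, was lower by 0.55 on the log2 scale without estrogen. Splice forms themselves were not measured.

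Within the KO group, several of the 10 genes ordered the replicate libraries the same way in both treatments. Fgfr1, Fgfr3, Fgfbp1 and Spry1 were highest in replicate 1, next in replicate 3 and lowest in replicate 2 with and without estrogen, an order shown by 11.6% of the genes tested. Replicates 1 and 3 were nearly equal for Fgfbp1 with estrogen (1111 and 1109 CPM) and for Fgfr1 without it (6.64 and 6.53 CPM). Fgfr3 in replicate 2 stood at 0.509 of the group mean with and 0.664 without estrogen, and Fgfbp1 at 0.61 and 0.654. The summed basal markers had this order too, with 11135, 6084 and 7914 CPM in KO replicates 1, 2 and 3 without estrogen and 11442, 4697 and 8038 CPM with it. Krt5 alone gave 6706, 3366 and 4944 CPM of the untreated sums. Trp63 (142, 89.7 and 88.8 CPM), Dsg3 (213, 120 and 111) and Col17a1 (832, 504 and 467) were instead lowest in replicate 3 without estrogen. With estrogen these 3 genes had the order of the sum. Fgf9 and Spry2 had the opposite order, highest in replicate 2 and lowest in replicate 1, as did 13.4% of the genes tested. Spry2 spread little, from 0.973 to 1.05 of the group mean without and 0.987 to 1.01 with estrogen, so its order rests on small differences. The summed ciliated markers were also highest in replicate 2 and lowest in replicate 1, with 855, 1320 and 994 CPM in KO replicates 1, 2 and 3 without estrogen and 728, 1079 and 788 CPM with it. Of this list Mcidas and Ccno did not have that order. Mcidas was highest in replicate 1 and lowest in replicate 3, with 26.8, 25.5 and 20.5 CPM without and 23.1, 19.0 and 15.5 CPM with estrogen. Ccno with estrogen had 76.6, 73.7 and 66.2 CPM. The other ciliated markers had the order of the sum. Whether these cell types carry the transcripts was not tested. With replicate 2 left out of both KO groups, an alternative chosen after seeing the data, every member called in both treatments was still called, and Spry1 was called with estrogen as well.

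**Figure D5:**
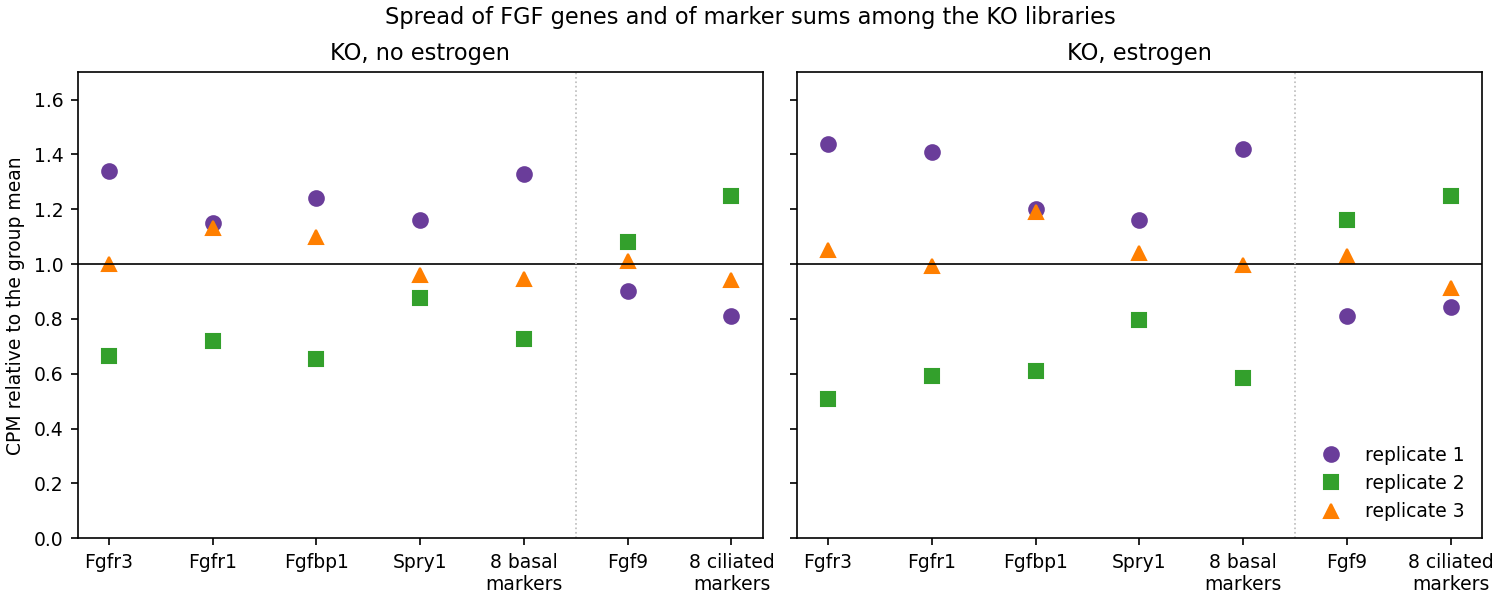
Level of 5 of the described genes and of the basal and ciliated marker sums in each KO library, as a ratio to the mean of its group of 3 (vertical axis, linear from 0), without estrogen (left panel) and with estrogen (right panel). Replicate 2 (green squares) is lowest for Fgfr3, Fgfr1, Fgfbp1, Spry1 and the basal sum, and highest for Fgf9 and the ciliated sum, in both panels.

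No member passed the test for estrogen in either genotype. In WT with against without estrogen, edgeR called 0 of 16465 genes at an adjusted p under 0.05, with 883 genes (5.36%) at an unadjusted p under 0.05. In KO it also called 0, with 411 genes (2.5%) at an unadjusted p under 0.05. For the difference of the effects between genotypes it called 0, with 726 genes (4.41%) at an unadjusted p under 0.05. Of the members, 1 in WT, 0 in KO and 1 for the difference had an unadjusted p under 0.05. DESeq2 called 63 genes in WT, 20 in KO and 25 for the difference, with 0 of the 10 members among them. Over the members, log2 fold changes of estrogen over none ran from -0.34 (Spry4) to 1.74 (Fgf1) in WT. In KO they ran from -1.03 (Fgf1) to 3.86 (Fgfr4, on 6 reads). The smallest unadjusted p among them was that of Spry2 in WT, which had 26.7, 30.4 and 32.8 CPM with and 24.3, 26.3 and 26.8 CPM without estrogen, a log2 fold change of 0.21 ± 0.0792 (unadjusted p = 0.0205, edgeR adjusted p = 0.838). Fgfr3 followed, with 3.68, 3.44 and 6.94 CPM with and 2.29, 2.90 and 2.40 CPM without estrogen in WT (log2 fold change 0.89 ± 0.41, edgeR adjusted p = 0.924). Both were singled out after their values were seen. In KO the effect of estrogen had its smallest SE for Spry2, at 0.004 ± 0.0789 on the log2 scale, and for Fgfr2 it was 0.04 ± 0.137. The directions of these KO effects of Spry2 and Fgfr2 changed with single libraries. Those of Spry2 and Fgfr3 in WT did not, and neither passed the test.

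Likeness to other genes was measured by Pearson's r of log2(CPM + 0.5) over the 12 libraries among 13144 genes with a mean of at least 1 CPM, and is a description, since all 12 share the genotype contrast. Fgfr2 was most like Abcb1b (r = 0.9984), Pkp4 and Utf1, and 2463 genes exceeded 0.95 with it. Fgfr3 was most like Sytl1 (r = 0.9978), Perp and Sptssa, with 1866 genes over 0.95, and Fgfr1 most like Slurp1 (r = 0.9984), Slc9a9 and Dapl1, with 2203. Fgfbp1 was most like Glis2 (r = 0.9969), Epb41l2 and Ifitm10, with 1791. Fewer genes resembled Fgf9 (Bmp4, r = 0.9819, with 150 over 0.95), Spry2 (Sulf2, r = 0.9906, with 148), Spry4 (Rab21, r = 0.9933, with 397) and Fgfr4 (Phactr3, r = 0.9852, with 245).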

How the data were processed

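Bulk RNA was measured in 12 organoid libraries grouped by the labels' genotype and treatment. The authors deposited raw read counts per gene, 1 file per library, made with featureCounts 2.0.0 over exons summed by gene symbol, per the file headers. The submitters' processing notes list STAR 2.7.10b, Trim Galore 0.6.6, FastQC 0.11.7, featureCounts 2.0.3 and build GRCm39. Per the headers, mates of a pair were counted separately, strand was ignored, and reads were dropped that mapped to several places or overlapped several genes, so copies and overlapping genes lose reads.

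Genes were kept by edgeR's filterByExpr (minimum count 10, minimum total 15; 16465 of 26264 genes), scaled by TMM and fitted over the 4 groups with edgeR 4.0.16 (robust quasi-likelihood; limma 3.58.1, R 4.3.3), with p-values adjusted over all genes tested (Benjamini-Hochberg, threshold 0.05). A genotype change meant a call in both treatments with the same sign. From each pathway list the text names up to 3 higher and 3 lower genes with the largest mean log2 fold change among such calls, plus Esrp1, Esrp2, Etv4, Etv5, Dusp6, Fgfrl1, Fgf2, Fgf7, Fgf10 and Esr1. The members and lists were chosen with earlier results of these data known. The fit was tested on simulated data in which few genes changed, evenly up and down. In the genotype contrasts most genes were called, so the simulation does not test scaling or false calls there. Alternatives were library size alone, DESeq2 1.42.0, other filters on low counts, a fit without robust weights, fits of the compared groups only, a replicate block, and leaving out each library.

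Between replicates of a group, chi-square divided by its degrees of freedom was 48.8 to 321, so none was counted as a duplicate. Replicate numbers were checked for pairing across treatments by the correlation of deviations from group means. In KO the same-numbered libraries correlated at 0.842, 0.770 and 0.647, so the numbers pair KO libraries. In WT they did not. No annotation of GRCm39 was used; lengths and promoter windows come from GRCm38.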

Additional observations from a re-analysis of the deposited data

How the results depend on the processing

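Fgfr4 and Fgf1 did not pass the filter of at least 1 CPM in 3 libraries and have no value under it. Of the 396 alternative values obtained for the members' genotype fold changes, all but 4 kept their direction and their side of the threshold. Among these values 0 reversed and 0 lost a call. The 4 gained a call and were all Spry1 with estrogen, with library size alone (0.53, adjusted p = 0.0143), with DESeq2 (0.40, adjusted p = 0.037), without treated KO replicate 2 (0.49, edgeR adjusted p = 0.0228) and without replicate 2 of both KO groups (0.49, edgeR adjusted p = 0.0221). Leaving out each library in turn left 10 members called without estrogen, 8 to 9 with estrogen and 8 to 9 in both. Over all genes it left 11002 to 11952 called without and 10904 to 11674 with estrogen, and in the 7 lists 26 to 29 higher and 24 to 25 lower. Library size alone put the median log2 fold change of all genes at 0.27 without and 0.21 with estrogen, in place of 0.04 and 0.02, and the share of higher genes among those called at 65.5% and 63.1%, in place of 52.5% and 51.8%.

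For estrogen, counts over all genes depended on the tool. DESeq2 called 63 genes in WT, 20 in KO and 25 for the interaction, where edgeR called 0. Leaving out single libraries gave 0 to 54 genes in WT, 0 to 4 in KO and 0 to 6 for the interaction; the 54 and the 6 came without treated WT replicate 1, the 4 without untreated KO replicate 3. A replicate block within genotype gave 7 genes in WT, 0 in KO and 4 for the interaction. In all of these 0 members were called, and the causes were not tested. In the genotype contrasts the replicate block gave 11814 genes without and 11640 with estrogen and changed no member's call. Since only the KO libraries pair by number, the paired result for estrogen in KO is the 0 genes above. Same-numbered WT libraries correlated at -0.338, -0.276 and -0.643 in their deviations from group means, so the WT block joins libraries that deviate apart. Treated WT replicates 1, 2 and 3 correlated best with untreated replicates 3, 1 and 2 (0.624, 0.656 and 0.749). No label gives that matching and no fit used it, so the WT and interaction counts are unpaired.

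Of 612 alternative values of the members' estrogen effects, 0 were called (lowest adjusted p = 0.175) and 33 changed sign or came to 0. With single libraries left out, the log2 effect of estrogen in WT ran from -0.568 to 0.077 for Fgfr1, -0.318 to 0.413 for Fgfr4 and -0.679 to 0.502 for Fgfbp1. In KO it ran from -0.249 to 0.353 for Fgfr1, -0.093 to 0.173 for Fgfr2, -0.245 to 0.426 for Fgfr3, 0 to 4.406 for Fgfr4, -0.081 to 0.172 for Fgf9, -0.107 to 0.38 for Fgfbp1, -0.177 to 0.081 for Spry1 and -0.015 to 0.039 for Spry2. The interaction ran from -0.01 to 0.654 for Fgfr1, -0.009 to 0.257 for Fgfr2, -0.07 to 4.336 for Fgfr4 and -0.38 to 0.801 for Fgfbp1. With library size alone the KO effect was -0.004 for Fgfr2, -0.003 for Fgf9 and -0.04 for Spry2, and Spry2 was at 0 with the stricter filter. Without replicate 2 of both KO groups it was 0 for Fgfr4 and -0.018 for Fgf9, with -0.07 for the Fgfr4 interaction. Precision is limited by 3 libraries per group, and for Fgfr4, Fgf1 and WT Fgfr1 by few reads.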

Other observations

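Among ligands outside the named ones, Fgf16 had 1.06 ± 0.101 CPM in KO and 0.370 ± 0.106 CPM in WT without estrogen, where it was higher (edgeR adjusted p = 0.00218). With estrogen it had 0.970 ± 0.215 CPM in KO and 0.713 ± 0.281 CPM in WT and did not pass the test (edgeR adjusted p = 0.247). Fgf18 had 1.85 ± 0.167 CPM in KO and 1.95 ± 1.70 CPM in WT without estrogen, and 2.17 ± 1.12 CPM in KO and 1.02 ± 0.687 CPM in WT with it, and passed in neither treatment (edgeR adjusted p = 0.92 and 0.146; SD, n = 3 each). Both were chosen after their values were seen, as the ligands tested and not called in both treatments.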
